A study of Homo sapiens with 12 samples.

Results

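The 37 genes of the human mitochondrial genome were followed as listed features through 12 libraries of OCI-LY1 cells. They were taken by name, as every feature whose name starts with MT- and is one of the 13 mRNAs, 22 tRNAs and 2 rRNAs of that genome, and all 37 were found among the 60656 rows of both deposited tables. Each occurred once, so all 37 are also among the 59490 names that occur once. By the annotation 28 lie on the plus strand and 9 on the minus strand, the latter being MT-ND6 and 8 tRNAs. OCI-LY1 is a human line of diffuse large B-cell lymphoma. Parental OCI-LY1 cells and a venetoclax-resistant line derived from them (OCI-LY1R, raised by stepwise exposure to at most 1 µM of the BCL2 inhibitor venetoclax) were each given DMSO as vehicle or 1 µM decitabine, an inhibitor of DNA methyltransferases, for 3 days. Each of these 4 groups had 3 libraries of polyadenylated RNA. Only 1 resistant line was used, so line and selection cannot be separated, and whether venetoclax was present during the 3 days is not given in the sources used here.

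Mitochondrial DNA is a small circle that is transcribed on both strands into long precursors. Most genes are read as plus-strand RNA, and MT-ND6 and a minority of tRNAs as minus-strand RNA. The tRNAs punctuate the precursors, and cutting at their ends frees the mRNAs and rRNAs between them. Most mitochondrial mRNAs then receive a short poly(A) tail, while MT-ND6 is known for having little or none, and tRNAs receive a CCA end instead. The 13 proteins are subunits of respiratory complexes I, III and IV and of ATP synthase, both rRNAs form part of the mitochondrial ribosome, and the 22 tRNAs decode its codons.

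Values are TPM, a length-scaled share of transcripts, and each library sums to 1000000 TPM. Depth is unknown, and no counting intervals are given. The lymphoid label held in part: 8 of 9 B-cell markers had a mean of at least 1 TPM in 11 libraries, with a summed level of 508 to 1966 TPM there that was mostly CD37. MS4A1 was at 0 to 3.15 TPM and CD79A at 3.39 to 8.74 TPM in the 11. In parental decitabine replicate 3 all 9 were at least at 1 TPM and summed to 4081 TPM. Markers of T cells, NK cells, myeloid and erythroid cells summed to at most 2.25 TPM in any library, and 4 epithelial markers to at most 34.9 TPM.

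On every minus-strand feature, and on all mRNAs and rRNAs of the plus strand, parental decitabine replicate 3 lay outside the range of the other 11 libraries. The tests below leave it out, and its values stand beside those of the 11. Parental libraries carry their numbers, while the columns of resistant libraries match a group only and are called a, b and c. Nothing states that replicates were separate cultures, so the spread behind each p-value may be technical.

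The strands differ in base composition, and the sequences of an mRNA from each strand show this. The first 60 bases of MT-ND6, the minus-strand mRNA, and of MT-ATP8, the plus-strand mRNA with the smallest share of G, are given with G in capitals (sequences from GENCODE 29, GRCh38, mitochondrial genome).
MT-ND6 (minus strand, 14614 to 14673): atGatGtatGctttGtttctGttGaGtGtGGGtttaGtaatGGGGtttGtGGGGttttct
MT-ATP8 (plus strand, 8366 to 8425): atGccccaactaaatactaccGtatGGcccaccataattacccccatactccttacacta
G made up 35.6% of MT-ND6 and 6.28% to 16.2% of the 12 plus-strand mRNAs. C made up 7.05% of MT-ND6 and 29.5% to 35.98% of the others. The same held for the tRNAs, with a median G share of 28.02% over the 8 of the minus strand and 15.4% over the 14 of the plus strand.

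A handful of tRNAs carries much of what follows. The 4 minus-strand tRNAs of alanine, asparagine, cysteine and tyrosine lie side by side and had the highest means of all tRNAs over the 11 libraries, MT-TE (glutamate) lies just beyond MT-ND6, and MT-TL1 (leucine, plus strand) was the highest tRNA of replicate 3. Each is printed in its own reading direction with the anticodon in capitals, found as the triplet that reads its amino acid's codons, after a T and framed by a stem.
MT-TA (minus, 5587 to 5655): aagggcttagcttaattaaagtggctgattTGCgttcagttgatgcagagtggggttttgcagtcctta
MT-TN (minus, 5657 to 5729): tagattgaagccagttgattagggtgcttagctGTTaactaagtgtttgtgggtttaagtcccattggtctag
MT-TC (minus, 5761 to 5826): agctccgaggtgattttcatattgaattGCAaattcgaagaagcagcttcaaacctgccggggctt
MT-TY (minus, 5826 to 5891): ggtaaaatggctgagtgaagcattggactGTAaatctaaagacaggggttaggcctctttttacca
MT-TE (minus, 14674 to 14742): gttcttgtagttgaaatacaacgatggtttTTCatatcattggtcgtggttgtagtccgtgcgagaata
MT-TL1 (plus, 3230 to 3304): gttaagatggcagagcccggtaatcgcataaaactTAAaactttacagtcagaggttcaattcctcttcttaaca
Features also share bases. MT-ATP8 and MT-ATP6 have 46 bases in common on the same strand (8527 to 8572), shown with the first codon of MT-ATP6 in capitals, MT-ND4L and MT-ND4 have 7, and 2 further pairs share 1 base each. Signal in these stretches cannot be assigned to 1 of the pair.
MT-ATP8 and MT-ATP6: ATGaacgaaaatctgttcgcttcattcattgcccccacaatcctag
Across strands the only shared stretch is 3 bases of MT-TI and MT-TQ, so RNA read opposite the other 8 minus-strand features has no mitochondrial feature of its own in these tables. Of the 13 mRNAs 5 end in TAA or TAG in the annotation, MT-CO1 in AGA and MT-ND6 in AGG. The other 6 end in T (5) or TA (MT-ND1), stops that are known to be completed by the poly(A) tail.

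In the 11 libraries minus-strand features carried nearly all mitochondrial signal, and in replicate 3 the plus strand did. All 37 features together took 13.6% to 33.8% of TPM in the 11 and 32.96% in replicate 3, so the total did not set that library apart. The minus-strand features held 92.97% to 96.4% of the mitochondrial TPM in the 11 and 1.34% in replicate 3. TPM weights short features up. After weighting each feature by its annotated length, the minus strand still held 72.3% to 82.5% in the 11 and 0.203% in replicate 3, and MT-ND6 alone held 48.7% to 60.6% and 0.113%. Of the 10 features of highest TPM in each library, all 10 were mitochondrial in replicate 3, led by MT-CO2, and 5 or 6 were in each of the 11, where MT-TC or MT-ND6 was the highest of them.

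**Figure D1:**
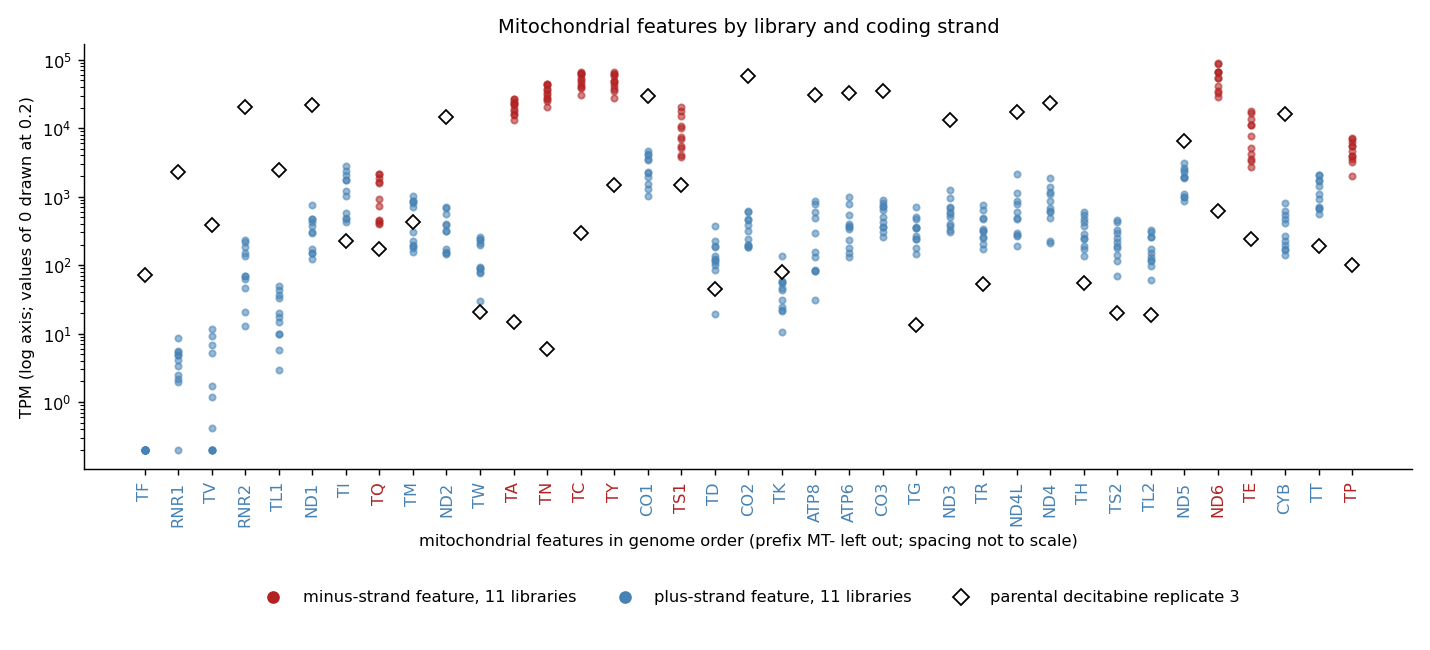
TPM (log axis) of the 37 mitochondrial features in genome order, with filled points for the 11 libraries (red: minus strand, blue: plus strand) and open diamonds for parental decitabine replicate 3. The diamonds lie below all points for the 9 minus-strand features and above all points for the 12 plus-strand mRNAs and both rRNAs, while plus-strand tRNAs lie on either side.

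The split by class was complete for mRNAs and rRNAs and mixed for tRNAs. Replicate 3 lay below the range of the 11 for 9 of 9 minus-strand features and above it for 12 of 12 plus-strand mRNAs and 2 of 2 rRNAs. Of the 14 plus-strand tRNAs it lay above the range for 3, below for 8 and within for 3. The 3 above, MT-TF (phenylalanine), MT-TV (valine) and MT-TL1, are the tRNAs that flank the rRNAs. MT-TF was listed at 0 in all 11 libraries and at 72.4 TPM in replicate 3, MT-TV at 0 to 11.6 against 392 TPM, and MT-TL1 at 2.89 to 49.9 against 2442 TPM. The rRNAs between them went the same way: MT-RNR1, of the small ribosomal subunit, was listed at 0 to 8.58 against 2283 TPM, and MT-RNR2, of the large subunit, at 12.98 to 231 against 20574 TPM. The part that strand assignment in either set of libraries has in this split was not tested.

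**Figure D2:**
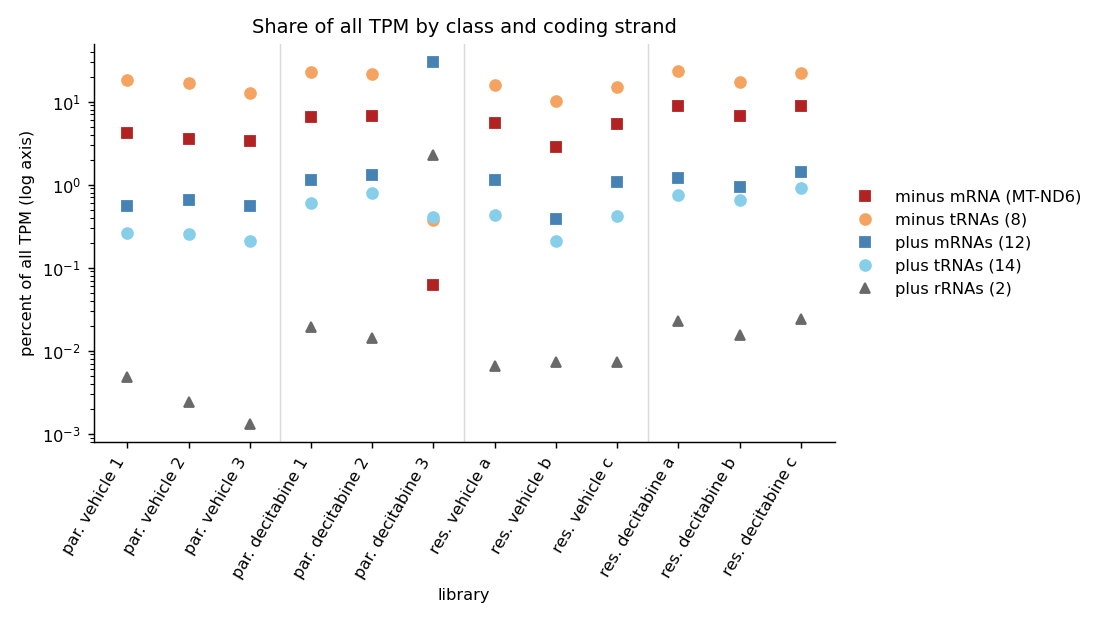
Percent of all TPM (log axis) held by each class and strand in each of the 12 libraries. Minus-strand tRNAs and MT-ND6 lead in 11 libraries, while in parental decitabine replicate 3 plus-strand mRNAs take 29.8% and the markers of minus- and plus-strand tRNAs nearly coincide.

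The first comparison asks how mitochondrial features answer decitabine in cells never selected with venetoclax. In parental cells 12 of 36 tested features rose and 0 fell, 3 of them on the minus strand (MT-ND6, MT-TE and MT-TQ) and 9 on the plus strand. Over all 8122 features tested 1.86% were called, 1.38% as rises and 0.48% as falls. By class the rises were 5 of 12 plus-strand mRNAs, 4 of 13 plus-strand tRNAs, 2 of 8 minus-strand tRNAs, MT-ND6 and neither rRNA. The median log2 fold change of the 36 was 1.09, against 0.21 for all features tested. Vehicle and decitabine libraries did not overlap in 31 of the 36, always higher under decitabine, as in 27.9% of all features. MT-TF, at 0 in these libraries, was not tested. In bulk RNA, a rise in all cells and a rise in some of them cannot be told apart. As TPM is a share, a gain of this RNA cannot be told from a loss of other RNA either.

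These calls rest on few libraries. Without vehicle replicate 1 MT-TE alone was called, without vehicle replicate 2 none (22 of 36 at an unadjusted p under 0.05 by limma), and without vehicle replicate 3 MT-TM alone. The number of calls over all features, 151 in the main fit, also changed between the alternatives. Leaving out decitabine replicate 1 or 2 leaves 1 library in that group. The members' median log2 fold change was then 1.21 and 1.13, against 0.24 and 0.19 for all features. With decitabine replicate 3 included, 0 of 37 were called (4 at an unadjusted p under 0.05 by limma), and the log2 fold changes of MT-ND6 and MT-TE turned to -1.38 and -0.26.

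The second comparison puts the same question to resistant cells. Of 36 tested features 2 rose, MT-RNR2 and MT-TM, and 0 fell. Of the 8579 features tested 3.59% were called, 2.83% as rises and 0.758% as falls. None of the 9 minus-strand features passed by limma, though 8 had an unadjusted p under 0.05, as had 26 of the 36. Their median log2 fold change was 1.02, against 0.21 for all features. Groups did not overlap in 27 of 36, always higher under decitabine, as in 19.8% of all features. The 27 include MT-TL2, nearly tied between vehicle a (253.856 TPM) and decitabine b (253.857 TPM).

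Resistant vehicle b moved with these results. All mitochondrial features took 13.6% of TPM in it, against 22.9% and 21.6% in vehicle a and c. Without it MT-TS1 was called as a fall (log2 fold change -1.92, limma adjusted p = 0.0381, 0.0381 to 0.537 over its alternatives), and MT-TW as a rise (1.38, limma adjusted p = 0.0324, range 0.0324 to 0.216). MT-RNR2 lost its call without any 1 of vehicle a, b or c or decitabine a or c (limma adjusted p 0.0201 to 0.0767 over its alternatives), and MT-TM without vehicle a or decitabine a, b or c (0.0274 to 0.0934). MT-TL1 was called without vehicle a (limma adjusted p = 0.0499, range 0.0499 to 0.188).

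**Figure D3:**
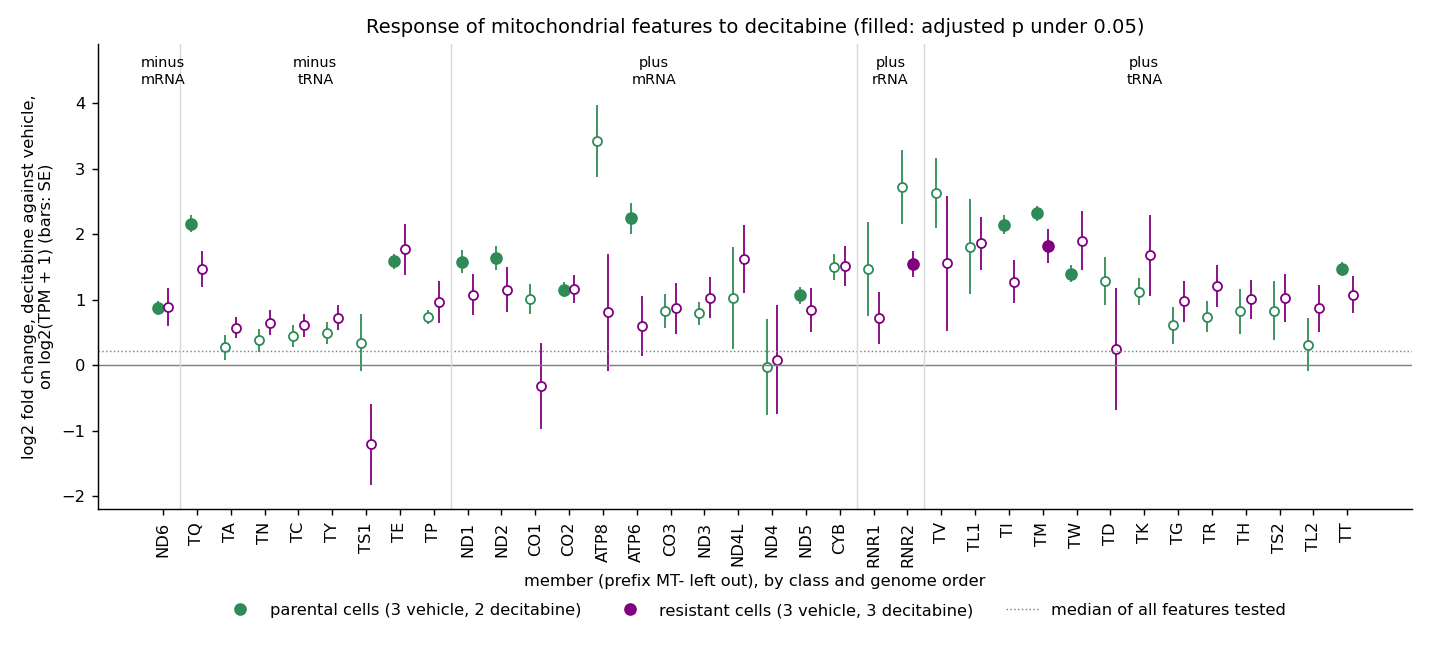
Log2 fold change with SE of 36 members under decitabine in parental (green) and resistant (purple) cells, by class, strand and genome order, with filled points for an adjusted p under 0.05. Most members lie above the dotted median of all features (0.21), and MT-TS1 and MT-CO1 in resistant cells lie below 0 without passing the test.

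MT-ND6 (14149 to 14673), a complex I subunit and the one mRNA of the minus strand, had the highest mean of all members over the 11 libraries. MT-ND6 read 41362, 34909 and 33106 TPM with vehicle in parental cells against 65904 and 67272 TPM with decitabine, and in resistant cells 54397, 28082 and 53244 TPM against 87200.3, 66777 and 88636 TPM. Every decitabine library lay above every vehicle library of its line, and vehicle b was the lowest of all 11. Parental cells gave a log2 fold change of 0.88 (SE 0.11, limma adjusted p = 0.0455), and resistant cells 0.89 (SE 0.29, limma adjusted p = 0.166). The parental call was lost under median-ratio scaling, with no filter, a pseudocount of 0.1, an adjusted p under 0.01 or a replicate block. It was also lost without any 1 vehicle library. Of the alternatives, only quantile scaling, scaling to non-mitochondrial features and a mean of at least 5 TPM kept it. With replicate 3 included its log2 fold change was -1.38. Over the alternatives its limma adjusted p was 0.0378 to 0.786. Replicate 3 held 610.0 TPM.

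MT-TE (14674 to 14742), the glutamate tRNA, abuts MT-ND6 on the same strand. Parental libraries gave 4234, 3529 and 3374 TPM (vehicle) and 11154 and 11029 TPM (decitabine), resistant libraries 5090.0, 2670.2 and 7642 TPM and 16579, 13637 and 18039 TPM. Groups did not overlap in either line, and the log2 fold changes, 1.59 (SE 0.12, limma adjusted p = 0.0163) in parental and 1.76 (SE 0.38, limma adjusted p = 0.0728) in resistant cells, were larger than those of MT-ND6. Replicate 3 held 239.9 TPM.

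The 4 neighbouring minus-strand tRNAs were high in all 11 libraries and had fold changes below the members' median in both lines. For MT-TA (alanine) parental libraries gave 23012, 22079 and 16211 TPM with vehicle and 26412 and 22438 TPM with decitabine, and resistant libraries 17578, 13398 and 15564 and 26394, 19278 and 23736 TPM. The parental groups overlapped and the resistant groups did not. MT-TN carries asparagine. MT-TN read 36113, 33087 and 25336 TPM with vehicle in parental cells against 43684 and 37502 TPM with decitabine, and in resistant cells 27581, 20744 and 26288 TPM against 44771, 30720.1 and 42200.4 TPM. MT-TC, the cysteine tRNA, had the highest mean of the 4. Parental libraries gave 53693, 49951 and 38284 TPM (vehicle) and 66479.9 and 61035 TPM (decitabine), resistant libraries 42179.5, 30439.5 and 40629 TPM and 63806, 47546 and 61070.1 TPM. MT-TY, the tyrosine tRNA, shares 1 base with MT-TC. MT-TY read 48574, 45843 and 34539 TPM with vehicle in parental cells against 62093 and 57676 TPM with decitabine, and in resistant cells 40871, 28013 and 37682 TPM against 65497, 48134 and 61613 TPM. For MT-TN, MT-TC and MT-TY the groups did not overlap in either line. Parental log2 fold changes were 0.27 for MT-TA, 0.38 for MT-TN, 0.44 for MT-TC and 0.49 for MT-TY, and none passed (limma adjusted p = 0.238 to 0.48). In resistant cells they were 0.57, 0.65, 0.61 and 0.72 in the same order, and none passed (limma adjusted p = 0.111 to 0.139).

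The proportions of these 4 stayed close. MT-TC was 2.26 to 2.72 times MT-TA in the 11 libraries, MT-TN 1.499 to 1.78 times MT-TA, and MT-TY 0.902 to 1.03 times MT-TC. In replicate 3 these ratios were 19.8, 0.412 and 5.06, with MT-TA at 14.6 TPM, MT-TN at 6.03 TPM, MT-TC at 290.5 TPM and MT-TY at 1469 TPM. MT-TN went from the fourth highest member by its mean over the 11 to the lowest of the 37.

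MT-TS1 (7446 to 7514), a serine tRNA of the minus strand, had the widest spread of that strand's features within the resistant vehicle group. MT-TS1 read 10862, 10145 and 6994 TPM with vehicle in parental cells against 7477 and 18082 TPM with decitabine, and in resistant cells 20747, 4056 and 15183 TPM against 5086, 3738 and 5430.4 TPM. Groups overlapped in both lines, and in resistant cells vehicle b alone lay within the decitabine range. Its resistant log2 fold change of -1.21 was the lowest of the 36. In replicate 3 it was the highest minus-strand feature, at 1503 TPM. MT-TP, the proline tRNA, was steadier. Parental libraries gave 3892, 3555 and 3258 TPM (vehicle) and 5551 and 6276 TPM (decitabine), resistant libraries 4633, 2017 and 3873 TPM and 7090.3, 5496 and 6934 TPM. Groups did not overlap in either line, without a call in the deposited scale (limma adjusted p = 0.0618 in parental cells), and replicate 3 held 99.1 TPM.

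MT-TI, MT-TQ and MT-TM, for isoleucine, glutamine and methionine, lie together at 4263 to 4469 with no other feature between them, MT-TQ on the strand opposite its neighbours. MT-TI had the highest mean of the plus-strand tRNAs over the 11. MT-TI read 466, 484 and 427 TPM with vehicle in parental cells against 1766 and 2337 TPM with decitabine, and in resistant cells 1030.4, 576 and 1222 TPM against 2076, 1750.2 and 2830.4 TPM. MT-TQ was lower than MT-TI in each of the 11. Parental libraries gave 414, 444 and 397 TPM (vehicle) and 1651 and 2110.3 TPM (decitabine), resistant libraries 724, 450.0 and 916 TPM and 1848, 1584 and 2158 TPM. MT-TM was the lowest of the 3. MT-TM read 177, 191 and 195 TPM with vehicle in parental cells against 852 and 1032 TPM with decitabine, and in resistant cells 228, 155 and 310.0 TPM against 856, 701 and 808 TPM. No groups overlapped. The parental log2 fold changes were 2.14 (SE 0.15, limma adjusted p = 0.0137) for MT-TI, 2.16 (SE 0.13, limma adjusted p = 0.0104) for MT-TQ and 2.32 (SE 0.12, limma adjusted p = 0.0074) for MT-TM. In resistant cells MT-TM rose by 1.82 (SE 0.26, limma adjusted p = 0.0288), while MT-TI (1.27) and MT-TQ (1.47) did not pass. Replicate 3 lay below the 11 for MT-TI (224 TPM) and MT-TQ (169.9 TPM) and within their range for MT-TM (428 TPM).

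**Figure D4:**
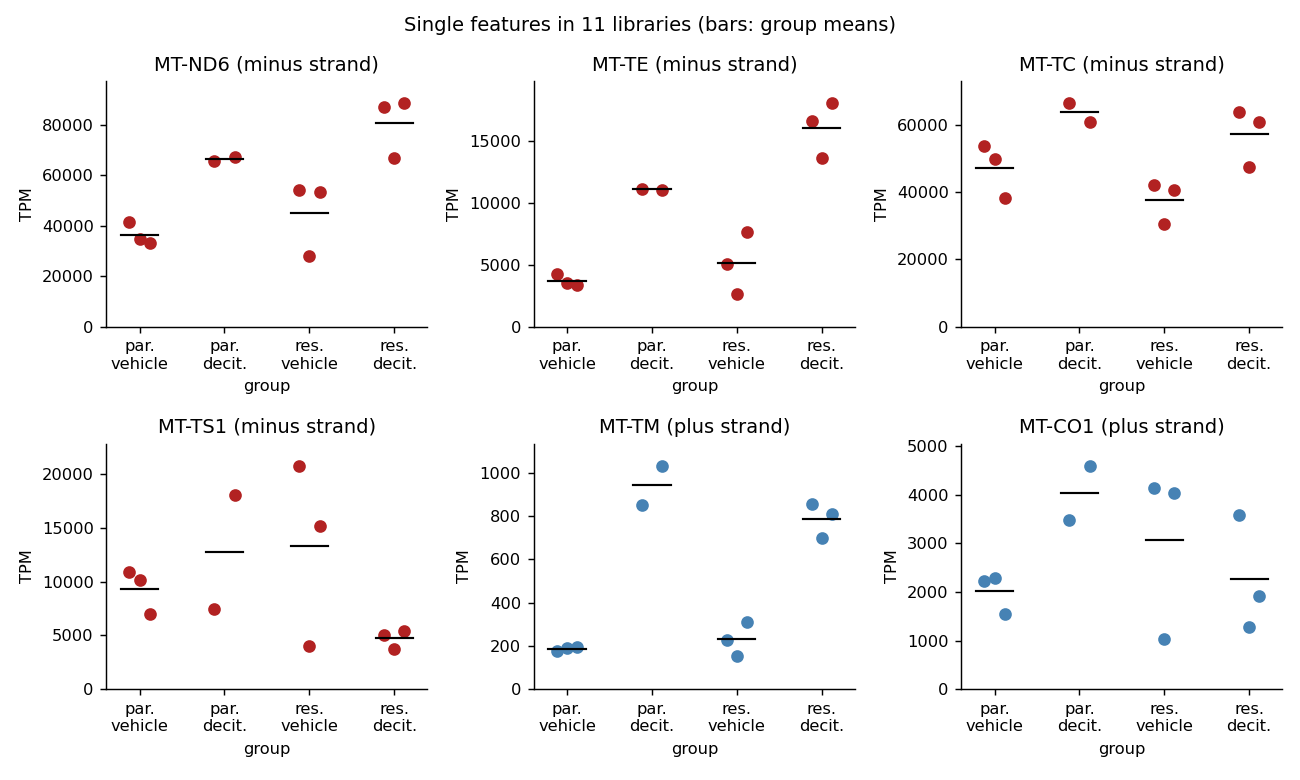
TPM in the 11 libraries (points, axes from 0) with group means (bars) for 4 minus-strand and 2 plus-strand features, parental decitabine replicate 3 left out. MT-ND6, MT-TE, MT-TC and MT-TM are higher in every decitabine library than in every vehicle library of the same line, whereas MT-TS1 overlaps in both lines, and MT-CO1 does so in resistant cells.

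Of the plus-strand mRNAs of complex I, MT-ND1, MT-ND2 and MT-ND5 rose in parental cells. MT-ND1 is the first mRNA after the rRNAs. MT-ND1 read 148, 152 and 121 TPM with vehicle in parental cells against 370.1 and 477 TPM with decitabine, and in resistant cells 307, 173 and 298 TPM against 425, 468 and 747 TPM. Its parental log2 fold change came to 1.58 (SE 0.17, limma adjusted p = 0.0346). MT-ND2 follows the MT-TI cluster. Parental libraries gave 153, 154 and 146 TPM (vehicle) and 391 and 565 TPM (decitabine), resistant libraries 316, 173 and 319.5 TPM and 691, 397 and 705 TPM. Its parental log2 fold change came to 1.63 (SE 0.18, limma adjusted p = 0.0346). MT-ND5 was second among plus-strand mRNAs by its mean over the 11. MT-ND5 read 1083, 993 and 996 TPM with vehicle in parental cells against 1889 and 2429 TPM with decitabine, and in resistant cells 1916, 868 and 1945 TPM against 2611, 2299 and 3088 TPM. Its parental log2 fold change came to 1.07 (SE 0.13, limma adjusted p = 0.0427), and in replicate 3 it was the lowest plus-strand mRNA. None of these 3 overlapped between vehicle and decitabine in either line.

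The other complex I mRNAs did not pass. MT-ND3 kept its groups apart in both lines. Parental libraries gave 375, 396 and 302 TPM (vehicle) and 549 and 688 TPM (decitabine), resistant libraries 601, 324 and 512 TPM and 696, 965 and 1268 TPM. MT-ND4L and MT-ND4 share 7 bases and spread widely between replicates. MT-ND4L read 292, 868 and 189 TPM with vehicle in parental cells against 1134 and 483 TPM with decitabine, and in resistant cells 279, 267 and 472 TPM against 596, 788 and 2168 TPM. MT-ND4L overlapped in parental cells. For MT-ND4 parental libraries gave 223, 612 and 1182 TPM with vehicle and 483 and 591 TPM with decitabine, and resistant libraries 1858, 209 and 1391 and 1090.1, 693 and 854 TPM. MT-ND4 overlapped in both lines. In replicate 3 MT-ND1 was at 21770.0 TPM, MT-ND2 at 14765, MT-ND3 at 13365, MT-ND4L at 17132, MT-ND4 at 23649 and MT-ND5 at 6523 TPM, all above the 11.

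Complex III and complex IV differed by member. MT-CYB, cytochrome b, stood higher with decitabine in every library of both lines without passing. MT-CYB read 197, 167 and 175 TPM with vehicle in parental cells against 621 and 415 TPM with decitabine, and in resistant cells 270.2, 142 and 228 TPM against 477, 808 and 532 TPM. Its log2 fold changes were 1.497 and 1.51 (limma adjusted p = 0.0535 and 0.0634). MT-CO1, the catalytic subunit of complex IV, was first among plus-strand mRNAs by its mean over the 11. Parental libraries gave 2226, 2284 and 1545 TPM (vehicle) and 3476 and 4584 TPM (decitabine), resistant libraries 4136, 1034 and 4021 TPM and 3580.4, 1283 and 1919 TPM. It separated in parental cells and overlapped in resistant cells, where vehicle b was the lowest library. MT-CO2 rose in parental cells, with a log2 fold change of 1.15 (SE 0.12, limma adjusted p = 0.0327). MT-CO2 read 185, 198 and 187 TPM with vehicle in parental cells against 469 and 384 TPM with decitabine, and in resistant cells 317, 198 and 244 TPM against 606, 454 and 626 TPM. MT-CO3 separated in parental cells only and passed in neither line. Parental libraries gave 356, 301 and 431 TPM (vehicle) and 797 and 509 TPM (decitabine), resistant libraries 722, 257 and 355 TPM and 712, 638 and 889 TPM. In replicate 3 the order turned: MT-CO2 was the highest of all features at 57348 TPM, MT-CO3 was at 34562, MT-CO1 at 29132 and MT-CYB at 16338 TPM.

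The ATP synthase mRNAs share 46 bases, printed above. MT-ATP6 rose in parental cells, with a log2 fold change of 2.24 (SE 0.24, limma adjusted p = 0.0342). MT-ATP6 read 178, 235 and 150.0 TPM with vehicle in parental cells against 772 and 999 TPM with decitabine, and in resistant cells 363, 133 and 395 TPM against 337, 369 and 541 TPM. MT-ATP8 had the largest parental log2 fold change of the 36 without passing, 3.42 (SE 0.55, limma adjusted p = 0.0715). Parental libraries gave 83.4, 84.98 and 31.2 TPM (vehicle) and 494 and 877 TPM (decitabine), resistant libraries 134, 83.4 and 590.5 TPM and 293, 156 and 773 TPM. Both separated in parental cells and overlapped in resistant cells. Replicate 3 held 32953 TPM of MT-ATP6 and 30762 TPM of MT-ATP8.

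The rRNAs were low in the 11 libraries. MT-RNR2, of the large ribosomal subunit, rose in resistant cells, with a log2 fold change of 1.54 (SE 0.20, limma adjusted p = 0.0224). MT-RNR2 read 46.2, 20.6 and 12.98 TPM with vehicle in parental cells against 185 and 135 TPM with decitabine, and in resistant cells 62.5, 69.2 and 70.4 TPM against 221, 150.5 and 231 TPM. Groups did not overlap in either line, and the parental log2 fold change, 2.71 (SE 0.56, limma adjusted p = 0.107), did not pass. MT-RNR1, of the small subunit, lay near 0. Parental libraries gave 1.98, 3.41 and 0 TPM (vehicle) and 5.46 and 5.63 TPM (decitabine), resistant libraries 2.51, 4.802 and 2.17 TPM and 4.13, 4.87 and 8.58 TPM. MT-TV, between them, read 0, 0 and 1.196 TPM with vehicle against 5.29 and 9.22 TPM with decitabine in parental cells, and 0, 1.75 and 0.424 TPM against 6.85, 0 and 11.6 TPM in resistant cells. MT-TL1, just past MT-RNR2, was also low. MT-TL1 read 14.9, 9.79 and 2.89 TPM with vehicle in parental cells against 20.03 and 43.7 TPM with decitabine, and in resistant cells 17.4, 5.79 and 9.95 TPM against 33.2, 36.3 and 49.9 TPM. It separated in both lines without a call.

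Of the remaining plus-strand tRNAs, MT-TT and MT-TW rose in parental cells. MT-TT (threonine) came second to MT-TI by the mean over the 11, but lay above it in the 3 parental vehicle libraries and in resistant vehicle a. Parental libraries gave 661, 700.4 and 687 TPM (vehicle) and 1699.6 and 2089 TPM (decitabine), resistant libraries 1090.4, 562 and 935 TPM and 1756, 1455 and 2097 TPM. Its parental log2 fold change came to 1.46 (SE 0.11, limma adjusted p = 0.0169). MT-TW (tryptophan) lies beside the 4 minus-strand neighbours. MT-TW read 78.2, 90.2 and 76.4 TPM with vehicle in parental cells against 199.6 and 234 TPM with decitabine, and in resistant cells 94.6, 29.8 and 86.5 TPM against 244, 209.6 and 259 TPM. Its parental log2 fold change came to 1.40 (SE 0.14, limma adjusted p = 0.0295). MT-TG (glycine) and MT-TR (arginine) flank MT-ND3. MT-TG read 237, 243 and 146 TPM with vehicle in parental cells against 269 and 357 TPM with decitabine, and in resistant cells 350.4, 176 and 354 TPM against 472, 504 and 695 TPM. MT-TR gave 258, 248 and 203 TPM with vehicle against 318 and 489 TPM with decitabine in parental cells, and 340.1, 174 and 315 TPM against 466, 644 and 762 TPM in resistant cells. Both tRNAs separated in both lines and did not pass.

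MT-TH (histidine), MT-TS2 (serine) and MT-TL2 (leucine) lie in a row between MT-ND4 and MT-ND5. MT-TH was the highest of the row. MT-TH read 242, 191 and 138 TPM with vehicle in parental cells against 250.5 and 431 TPM with decitabine, and in resistant cells 379, 174 and 282 TPM against 593, 466 and 547 TPM. MT-TS2 came next. Parental libraries gave 178, 141 and 69.2 TPM (vehicle) and 188 and 247 TPM (decitabine), resistant libraries 296, 115 and 219 TPM and 455, 324 and 432 TPM. MT-TL2 was the lowest and overlapped in parental cells. MT-TL2 read 151, 114 and 61.2 TPM with vehicle in parental cells against 120.0 and 133 TPM with decitabine, and in resistant cells 254, 96.2 and 171 TPM against 327, 254 and 308 TPM. MT-TD (aspartate) overlapped in resistant cells, where vehicle b stood far below the others. Parental libraries gave 134, 118 and 84.1 TPM (vehicle) and 192 and 378 TPM (decitabine), resistant libraries 224, 19.2 and 183 TPM and 111, 101 and 121 TPM. MT-TK (lysine) ranged over 10.7 to 138 TPM. In replicate 3 MT-TT was at 193 TPM, MT-TW at 20.8, MT-TG at 13.4, MT-TR at 52.9, MT-TH at 55.2, MT-TS2 at 19.9 and MT-TL2 at 18.7 TPM, all below the 11. MT-TD (44.3 TPM) and MT-TK (79.4 TPM) lay within their ranges.

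The third comparison, resistant against parental cells under vehicle, asks what differs before decitabine is given. None of the 35 tested features was called by limma (5 at an unadjusted p under 0.05), against 2.8% of 7761 features, 1.73% higher and 1.07% lower in resistant cells. MT-TV and MT-TF were below the minimum and not tested. Plus-strand mRNAs had a positive log2 fold change in 11 of 12 and a median of 0.46, and minus-strand tRNAs in 3 of 8 and a median of -0.19, while all features tested had 0.11. Groups did not overlap in 6 of 35, all higher in resistant cells (MT-RNR2, MT-ND1, MT-ND2, MT-CO2, MT-TI and MT-TQ), as in 17.8% of all features. MT-RNR2 had the largest of these differences (log2 fold change 1.49, limma adjusted p = 0.151). MT-ND6 had a log2 fold change 0.26, SE 0.28, limma adjusted p = 0.652. Without resistant vehicle b, 4 features were called as higher in resistant cells: MT-ND2 (limma adjusted p = 0.0199, range 0.0199 to 0.356), MT-ND5 (0.0199, range 0.0199 to 0.672), MT-TI (0.0218, range 0.0218 to 0.311) and MT-ND1 (0.0452, range 0.0452 to 0.326). The lines were deposited in separate tables, so line and table cannot be told apart.

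Tested directly, the difference between the decitabine responses of the lines passed for 0 of 36 features (limma, 1 at an unadjusted p under 0.05). Of 8505 features 0.364% were called, 0.188% with a positive and 0.176% with a negative difference. The median difference, resistant minus parental, was 0.03. The one feature was MT-ATP6, with a difference of -1.64 (SE 0.60, limma adjusted p = 0.401). MT-TS1 differed by -1.55 (SE 0.86) and MT-ND6 by 0.01 (SE 0.36), or by 2.27 with replicate 3 included (limma adjusted p = 0.72). With SEs of 0.26 to 1.33, sizeable differences between the lines would have gone uncalled. Without resistant vehicle b the number at an unadjusted p under 0.05 was 10, and 0 passed.

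The make-up of the mitochondrial signal is given here as a description of each library, with no test. MT-TA, MT-TN, MT-TC and MT-TY together held 67.6% to 71.02% of mitochondrial TPM in parental vehicle libraries and 58.7% to 64.5% in decitabine replicates 1 and 2. In resistant cells they held 55.6% to 68.1% and 56.6% to 59.3%, which overlap, with the highest share in vehicle b. MT-ND6 held 16.4% to 19.6% and 21.4% to 22.1% in parental cells and 20.7% to 24.7% and 25.8% to 26.6% in resistant cells, without overlap in either line. MT-TE, the neighbour of MT-ND6, stood at 10.1% to 10.2% of the MT-ND6 level in parental vehicle libraries and at 16.4% to 16.9% under decitabine. In resistant cells it stood at 9.36% to 14.4% and 19.01% to 20.4%, again without overlap, and at 39.3% in replicate 3. MT-TS1 stood at 20.2% to 22.4% of the MT-TY level in parental vehicle libraries and at 12.04% to 31.4% with decitabine, which overlap. It stood at 14.5% to 50.8% of the MT-TY level in resistant vehicle libraries and at 7.77% to 8.81% under decitabine. All plus-strand features together held 3.55% to 4.48% of mitochondrial TPM in parental vehicle libraries and 5.71% to 6.89% with decitabine, and in resistant cells 4.44% to 6.93% and 5.85% to 7.03%.

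A library-wide shift ran beside these rises. Features above 0 numbered 10228 to 10426 in parental vehicle libraries and 11230 to 11720 in decitabine replicates 1 and 2, and 9695 to 9927 and 12590 to 13130 in resistant cells. In parental decitabine replicate 3 they numbered 23241, so that library stood apart beyond its mitochondrial features. The summed B-cell markers stood at 1201 to 1966 TPM in parental vehicle libraries and 554 to 815 TPM in decitabine replicates 1 and 2, and at 708 to 987 and 508 to 1105 TPM in resistant cells, with 0 of 8 tested markers called in either line. The sum was mostly CD37, with log2 fold changes of -1.16 in parental and -0.53 in resistant cells. Of the 8 tested markers 4 had a positive log2 fold change in parental and 5 in resistant cells. The part of the feature numbers or of the marker sums in the rises was not tested. Relative to the median of all features, the members' median stood 0.88 higher in parental and 0.81 higher in resistant cells as deposited, 0.85 and 0.78 under median-ratio scaling, which moved the median of all features from 0.21 to 0.05 and 0.10, and 1.08 and 1.14 under quantile scaling. With each library scaled to its non-mitochondrial features, 14 and 4 members were called, among them MT-CYB in both lines. That scaling also raised the median of all features, to 0.41 in parental and 0.43 in resistant cells. The members' median stood 0.88 and 0.80 above it, about as far as in the deposited scale.

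Nuclear genes that serve mitochondrial RNA were mostly listed too low to test in the 11 libraries, though not in replicate 3. There, 17 of 18 genes for transcription and replication and 27 of 27 for processing, stability and decay read at least 1 TPM. By mean over the 11, 10 and 8 did. The part that strand assignment has in these values was not tested. Of 18 genes for transcription and replication of the genome, 9 were tested in each line and none passed by limma, with medians of 0.05 in parental and 0.74 in resistant cells against 0.21 for all features. TFAM, which packages mitochondrial DNA, and TFB2M, which opens its promoters, were listed at 0 in all 11 libraries and at 15.6 and 12.9 TPM in replicate 3. POLRMT, the mitochondrial RNA polymerase, ranged over 0 to 3.53 TPM in the 11 and read 42.7 TPM in replicate 3. Of 27 listed genes for processing, stability and decay, 8 were tested in parental and 9 in resistant cells. The only call among these was PTCD2, a protein of mitochondrial RNA maturation, which read 7.47, 4.62 and 5.85 TPM in resistant vehicle libraries and 0 in every resistant decitabine library (limma adjusted p = 0.017). PTCD2 thus met the minimum mean through its resistant vehicle libraries alone, at low levels, and no alternative fits were recorded for it. Among parental libraries PTCD2 read 0 in 1 with vehicle and 1 with decitabine. TRMT10C and HSD17B10, which cut tRNA ends together with PRORP, read 0 throughout the 11, and 20.6 and 138 TPM in replicate 3. PRORP ranged over 4.88 to 95.6 TPM in the 11 and read 16.1 TPM there.

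Nuclear copies of mitochondrial genes are near-identical to some members and may share their signal, so member values are uncertain to that extent. Of 408 such copies 322 were listed at 0 in all 12 libraries. Together they came to 486 to 1405 TPM in the 11 and 14759 TPM in replicate 3, of which MTATP6P1, a copy of MT-ATP6 on chromosome 1 (633696 to 634376, plus strand), took 10858 TPM. MTATP6P1 was at 31.5 to 148 TPM in the 11. MTND6P4, a copy of MT-ND6 on chromosome 5, went the way of MT-ND6, with 36.96 to 145 TPM over the 11 against 0.162 TPM in replicate 3. Of 10 tested in parental cells 3 rose with decitabine, MTATP6P1, MTCO1P12 and MTND2P28 (log2 fold changes 1.30, 1.21 and 1.86, limma adjusted p = 0.0339, 0.031 and 0.0342). Rises were called in 1.38% of all features tested there, and no alternative fits were recorded for the copies. In resistant cells 0 of 10 passed. Between the lines under vehicle, and for the difference of responses, no gene of these 3 lists passed by limma.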

How the data were processed

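RNA of 12 libraries was measured, 3 in each of 4 groups taken from sample titles. Stranded mRNA libraries were made, per the labels' protocols. Per the submitters' processing notes HISAT2 and StringTie were among the tools and hg38 was the build. Not given in the sources used here were versions, annotation and strand setting. Both deposited tables hold decimal values, taken as TPM scaled by the authors, since each library sums to 1000000.

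Members were matched by name. The identifiers of the parental table belong to the name beside them for 0 of 37 members, and by identifier 10 of 13 mRNAs would be listed at 0 in parental decitabine replicate 3, so identifiers were not used. The 1166 features with repeated names were left out. Parental columns were matched to samples by title, and resistant columns to groups only. Positions, strands and sequences come from GENCODE 29 (GRCh38).

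Each comparison was fitted over all features with limma 3.58.1 (trend, R 4.3.3) on log2(TPM + 1), keeping features whose fitted libraries averaged 1 TPM or more, with Benjamini-Hochberg adjustment and a threshold of 0.05. Fold changes on that scale understate those of low features. The test was tried on simulated data. Members with an adjusted p under the threshold and MT-ND6 were to be given with fold changes, all mRNAs, rRNAs and tRNAs of at least 100 TPM with levels. Fold changes of other members are given as values chosen after they were seen. The members, lists and tests were chosen with earlier results of these data known, including the separate place of replicate 3. Length-weighted shares use annotated lengths. The level of 1 B-cell marker is not reported here.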

Additional observations from a re-analysis of the deposited data

Results flagged for a closer look

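Parental decitabine replicate 3, which enters none of the main tests, held signal far above that of the other 11 libraries in 2 classes. Plus-strand mRNAs took 29.8% of its TPM, against 0.386% to 1.12% in the 6 vehicle libraries and 0.932% to 1.41% in the other decitabine libraries. The rRNAs took 2.29%, against 0.0013% to 0.0074% and 0.0141% to 0.024%. The separate place of this library was known beforehand.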

How the results depend on the processing

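In parental cells the 12 called members became 5 with no filter, 1 (MT-TM) at an adjusted p under 0.01, 0 with decitabine replicate 3 included and 0 with the replicate number as a block, and 0 to 7 when 1 library was left out. The other scalings, a mean of at least 5 TPM and a pseudocount of 0.1 gave 10 to 14. With replicate 3 included the log2 fold changes reversed for MT-ND6 (-1.38) and MT-TE (-0.26). Replicate numbers were not shown to pair parental libraries. With replicate 3 counted, same-numbered libraries deviated from their group means with correlations of -0.0035, 0.0164 and 0.0223. Without it the correlations were -0.0111 and -0.0121, but deviations of 2 decitabine libraries mirror each other and cannot decide on pairing. The block, fitted without replicate 3, left 0 calls over all 8122 features, with 23 members at an unadjusted p under 0.05 by limma. Resistant columns carry no sample number. In resistant cells the 2 called members became 4 when scaled to non-mitochondrial features, 0 with no filter, 0 at an adjusted p under 0.01 and 0 to 3 without 1 library. Between the lines under vehicle 0 became at most 4 without 1 library. For the difference of responses every alternative gave 0, and the value for MT-ND6 changed sign among the fits without 1 library (-0.30 to 0.18) and was 2.27 with replicate 3 included. Calls over all features went from 151 to 0 at the lowest and 277 at the highest in parental cells, 308 to 39 at the lowest and 433 at the highest in resistant cells, 217 to 37 at the lowest and 228 at the highest between the lines and 31 to 1 at the lowest and 47 at the highest for the difference. The mean minus-strand share in parental vehicle, parental decitabine, resistant vehicle and resistant decitabine libraries was 19.6, 28.7, 18.2 and 28.8% of all TPM, 95.9, 93.7, 93.9 and 93.6% of mitochondrial TPM and 86.2, 84.5, 84.7 and 87.3% of mRNA members alone. Depth is unknown in TPM, so values near 0 have no stated limit.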

Other observations

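Spread between replicates differed by class and group. In resistant vehicle libraries the highest library stood a median of 2.07-fold above the lowest over the 12 plus-strand mRNAs and 1.75-fold over the 8 minus-strand tRNAs, with up to 8.89-fold for MT-ND4 and 5.11-fold for MT-TS1. In parental vehicle libraries the medians were 1.37-fold and 1.40-fold. Level ranks also differed by library set: MT-ND5 ranked 10 of 37 by its mean over the 11 libraries and 13 in parental decitabine replicate 3, MT-CO2 23 and 1, and MT-TN 4 and 37.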
